A study of Mus musculus with 10 samples.

Results

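The 10 genes described here, Ngfr, Axl, Twist1, Zeb1, Zeb2, Snai2, Sox9, Egfr, Vim and Cdh2, are genes linked to dedifferentiation of melanoma. They were taken by symbol from a table of 27919 genes, and all 10 were present. The tumors were grown from B16F10, a mouse melanoma cell line, and their RNA was sequenced. They carried either Ly86 overexpression (4 tumors, 5 libraries) or the vector (3 tumors, 5 libraries). Ly86 encodes MD-1, a secreted partner of the immune receptor Cd180. Both groups came from mice given 4 rounds of anti-PD-1 and anti-CTLA4 antibodies, so that no tumor without this treatment was compared. For 3 tumors (Ly86 tumor 1, vector tumor 1 and vector tumor 2) 2 pieces were sequenced, and their mean stands for the tumor, the unit of replication. The strain, age and sex of the mice, the promoter of the construct and whether each cell line was a single clone are not given in the sources used here.

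A melanoma cell normally keeps a pigment cell program driven by the factors Mitf and Sox10, with products such as Pmel, the fibril protein of the pigment granule. Dedifferentiating melanoma cells lower this program and can take on a neural crest-like state, for which the receptor Ngfr is known, or an invasive, mesenchymal-like state, for which Axl, Egfr, Twist1 and Zeb1 are known. Zeb2, a relative of Zeb1, and Snai2, a Snail factor, are E-box binding repressors that are also part of the normal melanocyte program. None of the 10 genes is restricted to melanoma. Fibroblasts use Twist1, Egfr and Vim, macrophages and dendritic cells use Axl, and Schwann cells and some stromal cells use Ngfr. Each gene was therefore set beside Dcn, which encodes the fibroblast proteoglycan decorin, and beside Pmel.

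Libraries held values above 0 for 19304 to 21882 genes. Read depth was unknown, because TPM, an abundance corrected for transcript length and scaled to a fixed total, does not keep it. The pigment cell identity of the tumors was clear, with 2633 to 6135 TPM of Pmel per library. Ly86 itself stood at 49.15, 81.92, 53.16, 58.89 and 75.42 TPM in the libraries of the Ly86 tumors, and at 6.24, 9.88, 80.86, 7.85 and 30.32 TPM in those of the vector tumors. The first piece of vector tumor 2 thus lay within the range of the Ly86 libraries. That library stood apart in cell markers too, with a summed 6034 TPM for 15 fibroblast markers, against 252 TPM in the second piece of the same tumor. Summed fibroblast markers were 1224 to 3233 TPM in the Ly86 libraries and 252 to 6034 TPM in the vector libraries. Summed over 11 markers, macrophage genes were 1806 to 3655 TPM in the Ly86 libraries and 368.3 to 5110 TPM in the vector libraries, and 8 T cell markers were 45.77 to 97.16 TPM in the Ly86 libraries and 10.17 to 151.4 TPM in the vector libraries. No marker on these lists was at 0 in every library. In bulk tumor RNA, fewer cells of a type and less RNA per cell cannot be told apart.

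The promoters of Twist1, Ngfr and Egfr, 3 of the 4 members with the highest r with Dcn across tumors (none passed adjustment), are shown beside that of Vim, which was the highest and one of the steadiest members. Each window runs from 250 bases before to 50 bases after a start site, 5′ to 3′ on the gene's strand, from RefSeq on GRCm38.p6: Twist1 at chr12:33957421-33957720 on the plus strand, Ngfr at chr11:95587649-95587948 on the minus strand, Egfr at chr11:16751953-16752252 on the plus strand and Vim at chr2:13574061-13574360 on the plus strand. Capitals mark the GC box GGGCGG on either strand.
Twist1: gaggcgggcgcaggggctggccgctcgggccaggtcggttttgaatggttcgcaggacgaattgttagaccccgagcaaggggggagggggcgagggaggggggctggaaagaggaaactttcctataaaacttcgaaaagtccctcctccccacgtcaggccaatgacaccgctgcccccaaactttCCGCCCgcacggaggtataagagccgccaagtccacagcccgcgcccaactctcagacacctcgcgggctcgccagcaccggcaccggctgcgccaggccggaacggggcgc
Ngfr: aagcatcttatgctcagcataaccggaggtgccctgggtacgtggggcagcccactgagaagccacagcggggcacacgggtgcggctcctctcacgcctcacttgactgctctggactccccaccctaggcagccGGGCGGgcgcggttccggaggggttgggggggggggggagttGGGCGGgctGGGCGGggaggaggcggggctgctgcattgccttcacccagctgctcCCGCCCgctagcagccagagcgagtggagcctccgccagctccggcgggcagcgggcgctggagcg
Egfr: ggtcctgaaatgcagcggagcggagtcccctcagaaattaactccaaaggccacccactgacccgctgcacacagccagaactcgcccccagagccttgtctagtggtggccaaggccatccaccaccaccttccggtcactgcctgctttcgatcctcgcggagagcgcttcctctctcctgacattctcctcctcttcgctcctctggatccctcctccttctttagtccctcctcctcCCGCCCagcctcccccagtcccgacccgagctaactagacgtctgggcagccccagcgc
Vim: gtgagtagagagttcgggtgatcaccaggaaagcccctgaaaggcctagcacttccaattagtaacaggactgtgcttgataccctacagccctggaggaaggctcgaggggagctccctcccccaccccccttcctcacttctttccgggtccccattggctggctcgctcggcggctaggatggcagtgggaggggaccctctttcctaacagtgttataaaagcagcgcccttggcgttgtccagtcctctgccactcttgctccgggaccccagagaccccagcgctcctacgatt
Sequences were at hand for 6 of the 10 members, in 9 windows, since Zeb2 has 4 start sites. The GC box was in 7 of the 9 windows, against 35.7% of all promoter windows of this length, and was not in that of Vim or in the first window of Zeb2. The E-box CAGGTG, a sequence that Zeb and Snail factors bind, was searched on both strands and was in 0 of the 9 windows, against 20.2% of all windows. The AP-1 sequence TGANTCA was in 1 of 9, at Zeb2, against 7.81% of all windows. No match overlapped that of another of these sequences in any of the windows, but a pair of the Zeb2 windows overlap each other and hold the same GC box. A match describes the letters of a window and does not show that a factor binds there.

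Levels differed widely between the members. On the TPM scale, which corrects for length, Vim averaged 2088 over the tumors, Axl 72.58, Zeb2 57.61 and Cdh2 15.14. The other 6 members were low, with means of 4.93 for Snai2, 3.80 for Sox9, 3.44 for Twist1, 3.31 for Zeb1, 3.24 for Egfr and 1.28 for Ngfr. Vim exceeded Axl, Zeb2 exceeded Cdh2, Cdh2 exceeded Snai2 and Egfr exceeded Ngfr in 7 of 7 tumors. The order of Twist1 and Zeb1 was not resolved, with Twist1 higher in 3 of 7 tumors. Zeb2 thus stood far above its relative Zeb1, and Mitf (216.6 TPM in Ly86 and 227.1 TPM in vector tumors) and Sox10 (242.6 TPM in Ly86 and 302.3 TPM in vector tumors) were both high. Steadiness over tumors differed as much: the SD of Vim over tumors was 0.10 log2 units, and only 4.93% of tested genes had a smaller one, whereas the SD of Axl was 1.02, larger than that of 95.3% of them.

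The main comparison asked whether these genes differed between Ly86 and vector tumors. On average 9 of the 10 stood higher in the Ly86 tumors and Cdh2 lower, but none passed the test. Differences are on the scale log2(TPM + 1), Ly86 minus vector, and understate the change of low genes. The median difference of the 10 was 0.54, beside -0.037 over all 14556 genes with a mean of at least 1 TPM, of which 43.8% were higher. At an adjusted p threshold of 0.05 in limma, a linear model fitted over all genes, 0 of 10 members and 0% of all genes passed. At an unadjusted p under 0.05, 2 members were higher (Ngfr and Twist1) and 0 lower, against 5.78% of all genes higher and 4.97% lower. The groups did not overlap for 2 members, both higher (Ngfr and Snai2), against 4.71% of all genes higher and 5.75% lower. With vector tumor 2 represented by its second piece, the median of the 10 was 0.62 and 0 passed. All 10 members passed the filter on low values. Ngfr averaged 1.89 TPM in Ly86 and 0.46 TPM in vector tumors and so passed it only through the Ly86 group. Of the other 9 members, 1 was under an unadjusted p of 0.05 (Twist1), 1 did not overlap (Snai2), and their median difference was 0.43.

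**Figure D1:**
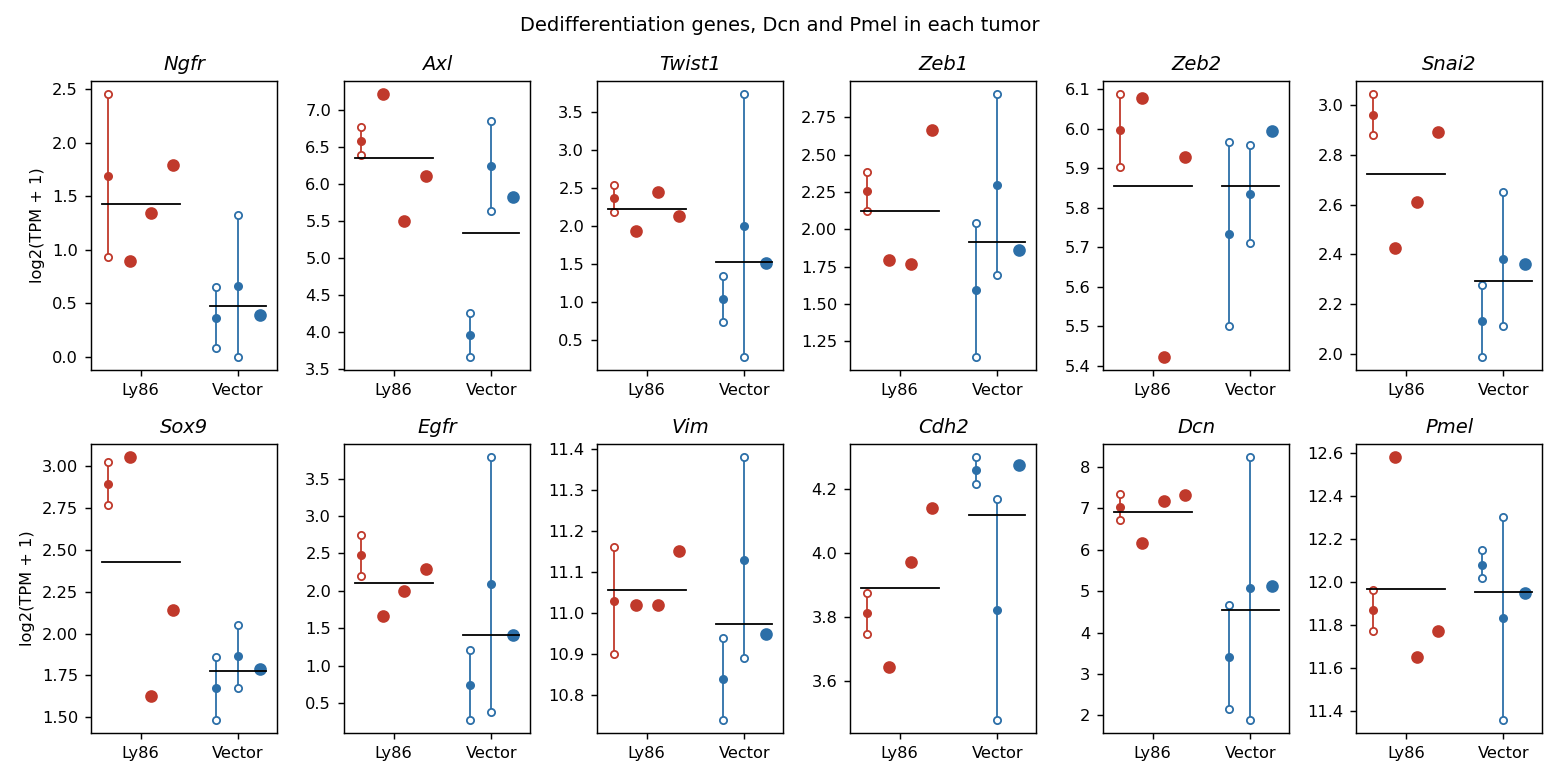
Log2(TPM + 1) of each gene by tumor, with Ly86 tumors in red and vector tumors in blue, each in the order of their numbers. Filled points are tumors, open points joined by a line are the 2 pieces of a divided tumor, and black bars are group means. Ngfr and Snai2 do not overlap between the groups, and the pieces of vector tumor 2 lie far apart for Twist1, Egfr and Dcn.

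Twist1, a basic helix-loop-helix factor of mesenchymal cells, had 3.57 and 4.81 TPM in the pieces of Ly86 tumor 1 and 2.82, 4.47 and 3.38 TPM in Ly86 tumors 2 to 4. The vector libraries held 0.67 and 1.53 TPM for tumor 1, 12.35 and 0.21 TPM for tumor 2 and 1.87 TPM for tumor 3. The first piece of vector tumor 2 was the highest of all 10 libraries and its second piece the lowest. By tumor, Twist1 averaged 2.22 ± 0.23 log2(TPM + 1) in Ly86 tumors (SD, n = 4) and 1.52 ± 0.48 in vector tumors (SD, n = 3), a difference of 0.70 (SE 0.27, limma adjusted p = 0.450). An exact two-sided permutation test over the 35 assignments of the tumors gave p = 0.0571, where 0.0286 is the smallest possible. With the first pieces of the divided tumors only, the difference was 0.18, and with the second pieces only 1.22. It was 1.20 with a pseudocount of 0.1, 0.40 with TPM averaged over pieces, 0.46 without vector tumor 1 and 1.275 (adjusted p = 0.0941) without the first piece of vector tumor 2.

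Snai2, a zinc finger repressor of neural crest and melanocytes, had 7.25 and 6.36 TPM in the pieces of Ly86 tumor 1 and 4.37, 5.11 and 6.42 TPM in the other Ly86 tumors. In vector tumors it had 3.85 and 2.96 TPM, 5.28 and 3.32 TPM, and 4.13 TPM. The groups did not overlap by tumor, although Ly86 tumor 2, at 2.42 log2(TPM + 1), was close to vector tumor 2, at 2.38. The difference was 0.43 (SE 0.19, limma adjusted p = 0.469), and the exact permutation p was 0.0571.

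The Zeb factors differed less. Zeb1 had 3.35, 4.23, 2.46, 2.41 and 5.34 TPM in the Ly86 libraries and 1.21, 3.11, 6.49, 2.23 and 2.63 TPM in the vector libraries, and the groups overlapped. Its difference was 0.20 (SE 0.29, limma adjusted p = 0.841), 0.041 without vector tumor 1, 0.022 without Ly86 tumor 4, and 0.31 to 0.39 without Ly86 tumor 2, Ly86 tumor 3 or vector tumor 2. Zeb2 ranged from 41.87 to 67.04 TPM in the Ly86 libraries and from 44.30 to 62.74 TPM in the vector libraries. Its difference was 0.0016, with a 95% interval of -0.38 to 0.39 (limma adjusted p = 0.999).

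Sox9, a factor of neural crest and cartilage, split the Ly86 group. It had 7.13 and 5.81 TPM in Ly86 tumor 1 and 7.31 TPM in Ly86 tumor 2, but 2.09 and 3.41 TPM in Ly86 tumors 3 and 4. The vector libraries lay between 1.80 and 3.15 TPM, and Ly86 tumor 3 was lower than every vector tumor. Summed markers of keratinocytes and of skeletal muscle were also higher in Ly86 tumors 1 and 2 than in Ly86 tumors 3 and 4. Over 9 keratinocyte markers, the sums were 3103 and 254.8 TPM in the pieces of tumor 1, 28.68 TPM in tumor 2, 3.51 TPM in tumor 3 and 4.83 TPM in tumor 4, against 3.63 to 813.3 TPM in the vector libraries. Over 7 skeletal muscle markers, they were 26.04 and 1000, 360.9, 6.68 and 9.37 TPM in Ly86 tumors 1 to 4, against 24.54 to 292.2 TPM in the vector libraries. The mean of the T cell markers was 3.51 and 3.395 log2(TPM + 1) in Ly86 tumors 1 and 2 and 2.54 and 3.15 in Ly86 tumors 3 and 4. In vector tumors it was 1.02 to 3.00. Over the 7 tumors, Sox9 had an r of 0.70 with it (exact permutation p = 0.0726, adjusted 0.322) and a rho of 0.86 (exact p = 0.0238, adjusted 0.3125). The part of these cell types in the level of Sox9 was not tested. The difference was 0.66 (SE 0.35, limma adjusted p = 0.534).

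Among the receptors, Ngfr, the low-affinity neurotrophin receptor, had 0.91 and 4.47 TPM in the pieces of Ly86 tumor 1 and 0.86, 1.54 and 2.46 TPM in Ly86 tumors 2 to 4. In the vector group it had 0.06 and 0.57 TPM in tumor 1, 1.51 and 0.00 TPM in tumor 2 and 0.31 TPM in tumor 3. By tumor the groups did not overlap, but the pieces did. Its means were 1.43 ± 0.41 log2(TPM + 1) in Ly86 tumors (SD, n = 4) and 0.47 ± 0.17 in vector tumors (SD, n = 3). The difference was 0.96 (SE 0.30, limma adjusted p = 0.437, and 0.664 with no filter on low values). Since Ngfr entered through the group where it was high, these values describe it and are no support for a difference. The exact permutation test gave p = 0.0571. The difference was 2.18 with a pseudocount of 0.1 in place of 1, and 0.64 with the first pieces only. With array weights, which let limma weigh tumors unequally and gave vector tumor 3 by far the most weight, Ngfr (1.08, adjusted p = 0.0250) and Twist1 (0.68, adjusted p = 0.0361) passed, both higher, against 4.3% of all genes passing on the higher side and 12.6% in either direction. For Ngfr this too is a description and no support.

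Axl, a receptor tyrosine kinase of the TAM family, was high in most tumors. It had 82.89 and 108.1, 147.9, 44.34 and 68.11 TPM in Ly86 tumors 1 to 4, and 18.19 and 11.66, 114.6 and 48.79, and 55.56 TPM in vector tumors 1 to 3. Vector tumor 1 was the lowest in both of its pieces, and the other vector tumors lay within the Ly86 range. The difference was 1.01 (SE 0.58, limma adjusted p = 0.561), 0.32 without vector tumor 1 and 0.66 with the first pieces only.

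Egfr, the receptor for epidermal growth factor, had 3.58 and 5.73 TPM in Ly86 tumor 1 and 2.18, 2.99 and 3.90 TPM in Ly86 tumors 2 to 4. It had 0.21 and 1.32 TPM in vector tumor 1, 12.83 and 0.30 TPM in vector tumor 2 and 1.65 TPM in vector tumor 3. As for Twist1, the first piece of vector tumor 2 was the highest library. The difference was 0.70 (SE 0.35, limma adjusted p = 0.510), 0.36 without vector tumor 1, 0.21 with the first pieces only, 1.18 with the second pieces only, 1.29 with a pseudocount of 0.1, 0.40 with TPM averaged over pieces and 1.265 (adjusted p = 0.0942) without the first piece of vector tumor 2. In that last setting the vector mean of Egfr was under 1 TPM, so it passed the filter only through the Ly86 group. The value there is a description and no support.

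Of the filament and adhesion genes, Vim, which encodes vimentin, ranged from 1913 to 2280 TPM in the Ly86 libraries and from 1709 to 2661 TPM in the vector libraries. Its difference was 0.080 (SE 0.10, limma adjusted p = 0.823), 0.013 without vector tumor 1, 0.049 without Ly86 tumor 4 and 0.16 without vector tumor 2. Cdh2, which encodes N-cadherin, was the member on the lower side. It had 13.68 and 12.42, 11.49, 14.68 and 16.63 TPM in Ly86 tumors 1 to 4, and 17.59 and 18.71, 10.14 and 16.98, and 18.39 TPM in vector tumors 1 to 3. The lowest library was the first piece of vector tumor 2, where Dcn was highest. The difference was -0.23 (SE 0.17, limma adjusted p = 0.665). It was -0.38 without vector tumor 2, -0.15 without Ly86 tumor 2 or without vector tumor 3, -0.083 with the first pieces only and -0.37 with the second.

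The pieces of the divided tumors show how far a gene varied within 1 tumor, with no group involved. In vector tumor 2, the first piece had 302.9 TPM of Dcn and the second 2.72 TPM, while Pmel was 2633 and 5028 TPM. Twist1 differed by 3.46 log2 units between these pieces, more than 97.8% of tested genes, and Egfr by 3.41, more than 97.7%. Ngfr differed by 1.33, Axl by 1.22 and Zeb1 by 1.21, whereas Vim differed by 0.49 and Zeb2 by 0.25. Cdh2 ran the other way, at -0.69, as did Pmel, at -0.93. In vector tumor 1, Dcn was lower in the first piece by 2.53 log2 units, and Egfr was lower there by 0.94, Zeb1 by 0.90, Twist1 by 0.60 and Ngfr by 0.57, while Axl was higher by 0.60. In Ly86 tumor 1, Dcn differed by -0.63, more than 86.9% of tested genes. The largest member difference there was that of Ngfr, at -1.52, more than 97.2%. In all 3 divided tumors Ngfr, Twist1, Zeb1, Zeb2 and Egfr were higher in the piece with more Dcn, 5 of 10 members against 20.8% of all tested genes. None of the 10 was lower in that piece in all 3, against 9.47% of genes. That piece also had higher summed markers of macrophages, T cells, endothelium, pericytes with smooth muscle, and skeletal muscle in all 3 tumors. Macrophage sums were 3655 against 1806 TPM in Ly86 tumor 1, and 601.3 against 369.1 TPM in vector tumor 1. In vector tumor 2 they were 5110 against 368.3 TPM. Keratinocyte, Schwann cell and pigment cell sums were not higher there in every tumor. The part of each cell type was not tested.

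**Figure D2:**
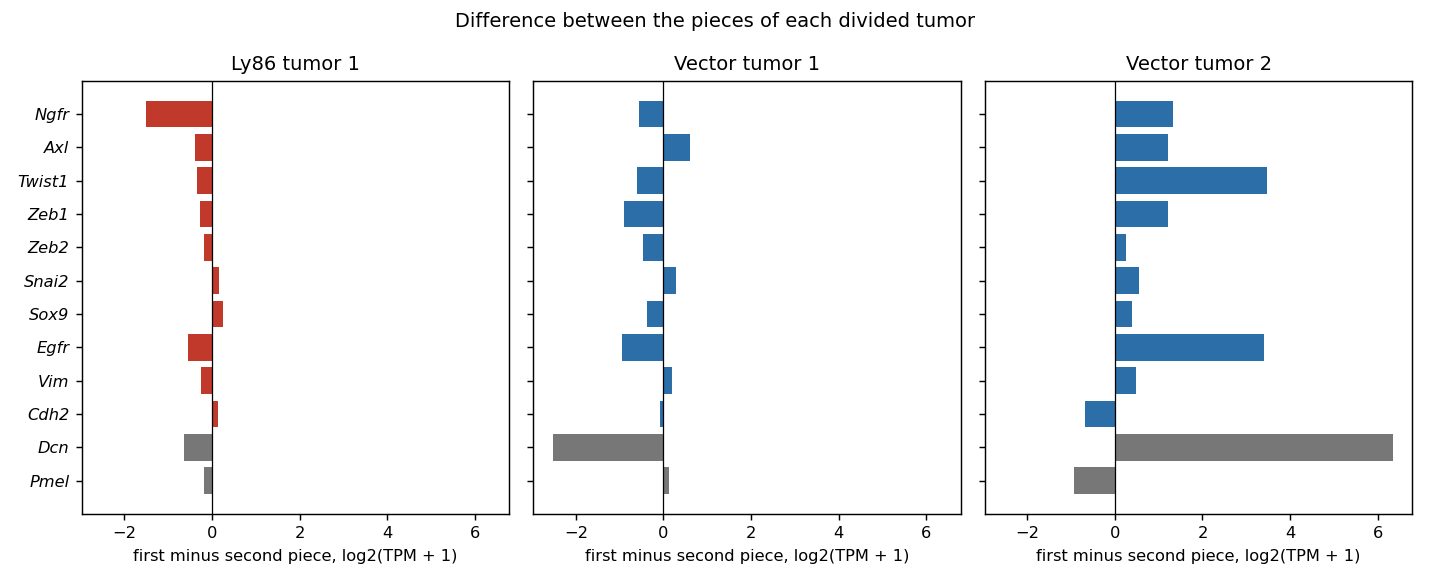
First minus second piece, in log2(TPM + 1), for each gene in the 3 divided tumors, on 1 shared axis. Bars of members are red for Ly86 and blue for vector, and bars of Dcn and Pmel are gray. Twist1 and Egfr have the longest member bars in vector tumor 2, beside Dcn at 6.35.

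Across the 7 tumors, 8 members had a positive correlation with Dcn and 3 with Pmel, beside 42.1% and 59.4% of all tested genes. Exact permutation over all pairings of the tumors gave an unadjusted p under 0.05 with Dcn for 4 members (Ngfr, Twist1, Snai2 and Egfr), all positive, against 8.52% of all genes on the positive and 5.91% on the negative side. With Pmel it did so for 0 members, against 4.63% of genes on the positive and 1.42% on the negative side. Adjusted over the 14555 genes, 0 members and 0% of genes passed for either. The 4 members counted with Dcn include Ngfr, which passed the filter on low values only through the Ly86 group. Its p is therefore a description and no support. Dcn itself averaged 6.92 ± 0.52 log2(TPM + 1) in Ly86 tumors (SD, n = 4) and 4.54 ± 0.98 in vector tumors (SD, n = 3), and the groups did not overlap. Group and Dcn are therefore partly confounded, and each correlation is also given after centring on the group means, with pairings within groups only. No correlation was computed within a single group, of 4 and 3 tumors.

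Twist1 had a Pearson r of 0.91 with Dcn (exact permutation p = 0.00556, adjusted 0.201, n = 7) and a Spearman rho of 0.79 (exact p = 0.0480, adjusted 0.486). Centred on group means, r was 0.81 (exact p = 0.118). Without vector tumor 1 and Ly86 tumor 4, the 2 tumors farthest from the median of Dcn, it was 0.85. Ngfr had an r of 0.90 (exact p = 0.00714, adjusted 0.2135, n = 7) and a rho of 0.93 (exact p = 0.00675, adjusted 0.370), with r at 0.59 after centring (exact p = 0.111) and 0.93 without those 2 tumors. Snai2 had an r of 0.89 (exact p = 0.00714, adjusted 0.2135, n = 7) and a rho of 0.86 (exact p = 0.0238, adjusted 0.428). After centring, its r was 0.71 (exact p = 0.0556), and without the 2 tumors 0.79. In the pieces, however, Snai2 was higher where Dcn was higher in only 1 of 3 divided tumors. Egfr had an r of 0.85 (exact p = 0.0145, adjusted 0.245, n = 7), a rho of 0.64 (exact p = 0.139, adjusted 0.625), an r of 0.82 after centring (exact p = 0.111) and 0.55 without the 2 tumors. With vector tumor 2 left out, whose pieces were far apart, r was 0.97 for Twist1, 0.96 for Egfr, 0.90 for Ngfr and 0.88 for Snai2.

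The other 6 members did not reach an unadjusted p under 0.05 with Dcn, and had adjusted p from 0.437 to 0.993 for r and from 0.650 to 0.949 for rho. Vim had an r of 0.66 (exact p = 0.105, n = 7) and a rho of 0.61 (exact p = 0.167). Its r was 0.70 after centring (exact p = 0.139) but -0.15 without vector tumor 1 and Ly86 tumor 4. Axl had an r of 0.62 (exact p = 0.133, n = 7), a rho of 0.21 (exact p = 0.661) and an r of 0.39 after centring (exact p = 0.590). Its r was -0.0086 without those 2 tumors, -0.060 without vector tumor 1 alone and 0.65 without Ly86 tumor 4 alone. Zeb1 had an r of 0.53 (exact p = 0.221, n = 7), a rho of 0.39 (exact p = 0.396) and an r of 0.63 after centring (exact p = 0.174). Its r was -0.19 without the 2 tumors, 0.85 with the first pieces, 0.57 with the second and 0.78 over the 10 libraries. Sox9 had an r of 0.41 (exact p = 0.343, n = 7) and a rho of 0.21 (exact p = 0.661), which turned to an r of -0.30 after centring. Cdh2 had an r of -0.41 (exact p = 0.365, n = 7) and a rho of -0.21 (exact p = 0.661), with 0.090 after centring, and Zeb2 an r of -0.013 (exact p = 0.976, n = 7) and a rho of 0.11 (exact p = 0.840).

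**Figure D3:**
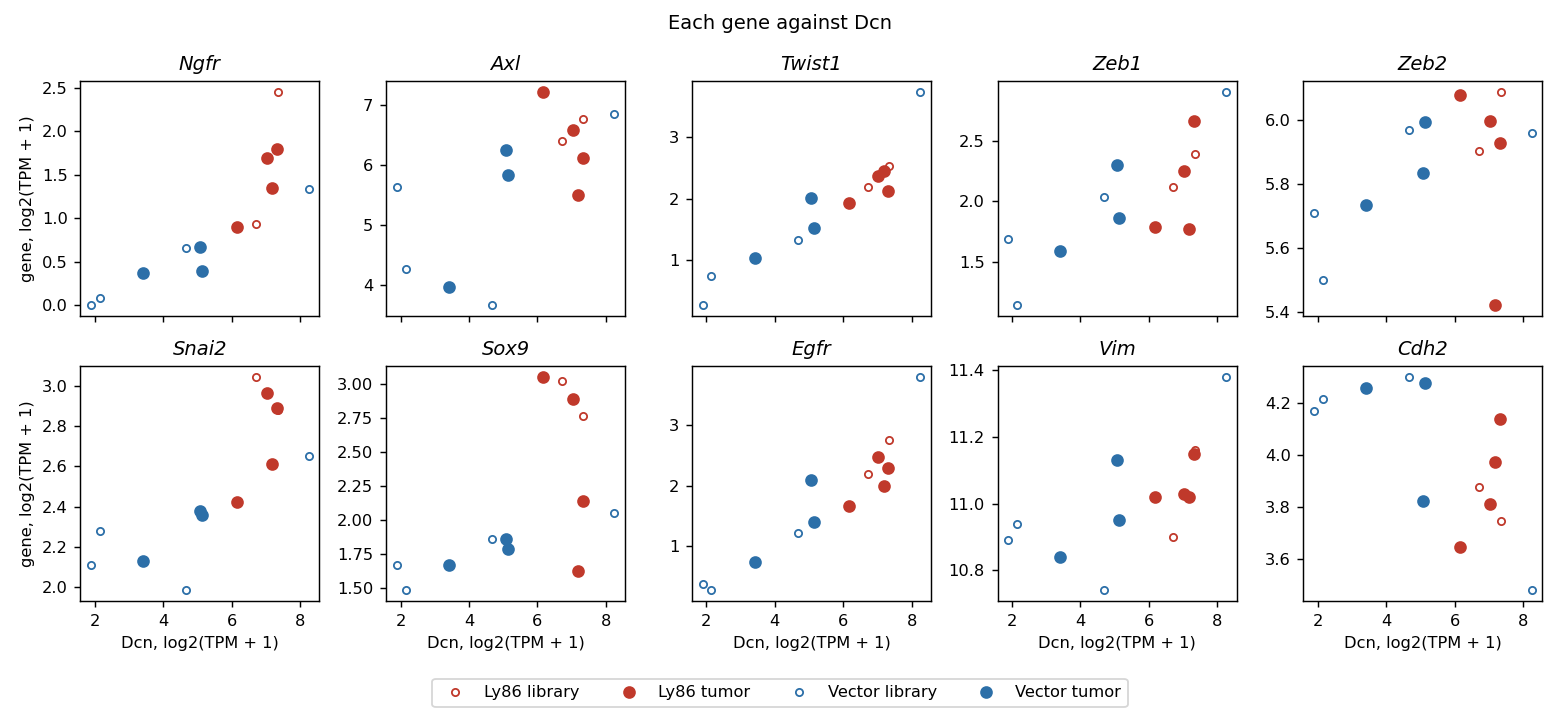
Each gene against Dcn, both in log2(TPM + 1). Filled points are tumors and open points are libraries, in red for Ly86 and blue for vector, and undivided tumors show as filled points alone. Twist1, Egfr and Ngfr climb with Dcn across tumors and pieces, with r of 0.91, 0.85 and 0.90 over the tumors. Zeb2 had an r of -0.013 over the tumors, but was higher in the piece with more Dcn in all 3 divided tumors.

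None of the genes had a relation with Pmel that passed the adjustment, with adjusted p from 0.869 to 0.937 for r and from 0.464 to 0.972 for rho. The r values ran from -0.43 for Egfr (exact p = 0.332, rho -0.57, exact p = 0.200, n = 7) to 0.59 for Sox9 (exact p = 0.147, rho 0.39, exact p = 0.396, n = 7). Zeb2 had an r of 0.57 (exact p = 0.183, rho 0.57, exact p = 0.200, n = 7), the second highest. Both of these positive values turned negative without Ly86 tumors 2 and 3, the tumors farthest from the median of Pmel, to -0.45 for Sox9 and -0.50 for Zeb2. Twist1 had an r of -0.39 (exact p = 0.366, n = 7) and a rho of -0.79 (exact p = 0.0480, adjusted 0.464), and after centring an r of -0.62 (exact p = 0.0208, adjusted 0.495). Without Ly86 tumors 2 and 3, r was negative for 9 of the 10, as low as -0.98 for Zeb1 and for Vim over 5 tumors, and 0.55 for Cdh2. The share of all genes with a negative r over these 5 tumors was not determined, so that the count is only a description. Pmel itself hardly differed between the groups, at 11.97 ± 0.42 log2(TPM + 1) in Ly86 tumors (SD, n = 4) and 11.96 ± 0.13 in vector tumors (SD, n = 3).

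**Figure D4:**
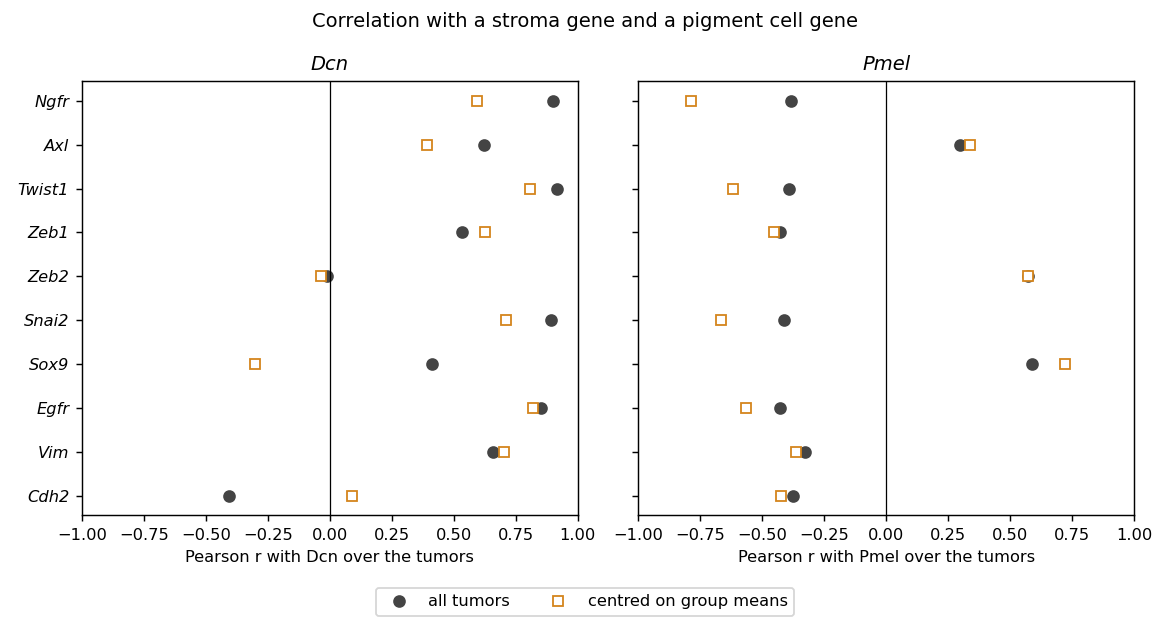
Pearson r of each gene with Dcn on the left and with Pmel on the right over the 7 tumors. Filled circles use all tumors as they are and open squares use values centred on the mean of their own group. Twist1, Egfr, Snai2 and Vim have an r of at least 0.70 with Dcn after centring, none at an exact permutation p under 0.05. Sox9 and Cdh2 change sign.

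With Dcn as a covariate, as without it, no member passed. In that model, the sign of the Ly86 minus vector difference turned for 6 of the 10 members. Twist1 stood at -0.23 (SE 0.49), Egfr at -0.64 (SE 0.57), Zeb1 at -0.61 (SE 0.57), Axl at -0.20 (SE 1.20), Snai2 at -0.056 (SE 0.40) and Vim at -0.16 (SE 0.21). Ngfr remained on the higher side at 0.32 (SE 0.63), and Sox9 stood at 1.16 (SE 0.77). All standard errors were larger than without Dcn, which did not overlap between the groups. With Pmel as a covariate the differences hardly moved, to 0.70 for Twist1 and 0.97 for Ngfr.

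**Figure D5:**
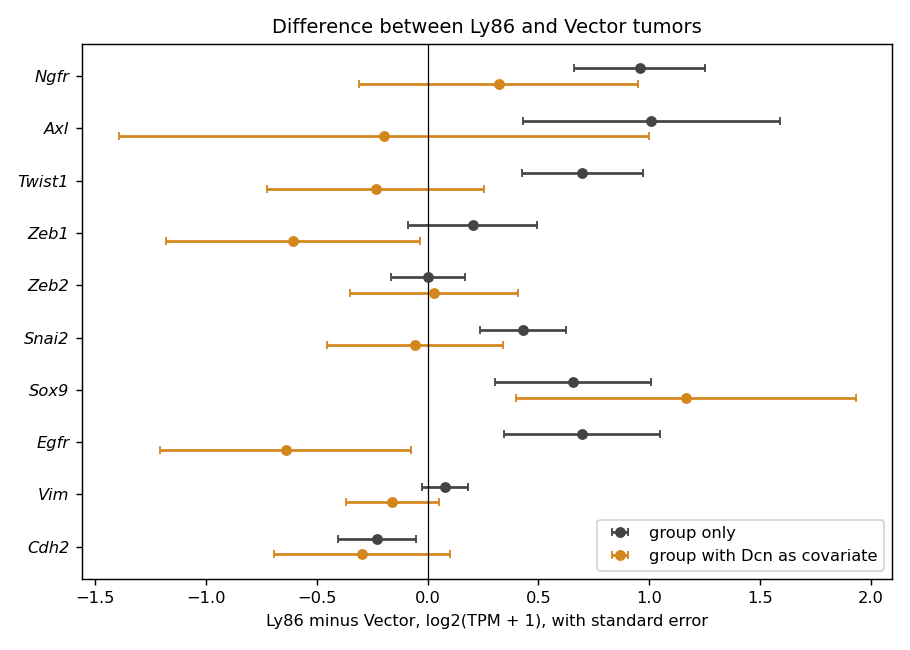
Ly86 minus vector difference of each gene in log2(TPM + 1), with its standard error, from the model with the group only (gray) and with Dcn as a covariate (orange). The values of Twist1 are 0.70 and -0.23 and those of Sox9 0.66 and 1.16.

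Axl, which macrophages also express, was set beside the immune markers. The mean of the 11 macrophage markers was 4.36 log2(TPM + 1) in vector tumor 1, the tumor lowest in Axl, against 6.11 to 6.92 in the other 6 tumors. The T cell mean was 1.02 there and 2.49 to 3.51 elsewhere. With the macrophage mean, Axl had a Pearson r of 0.86 (exact p = 0.0357, adjusted 0.2825, n = 7) and a rho of 0.54 (exact p = 0.236, adjusted 0.737), and an r of 0.49 without vector tumors 1 and 2. With the T cell mean it had an r of 0.96 (exact p = 0.00198, adjusted 0.0883, n = 7) and a rho of 0.89 (exact p = 0.0123, adjusted 0.271). Centred on group means the T cell value was 0.95 (exact p = 0.0139), and without vector tumors 1 and 3 it was 0.86. Both lists were chosen as references after the data were seen, and 11.8% of all genes had a positive unadjusted p under 0.05 with the T cell mean. With the macrophage mean, 5 of the 10 members had a positive r at an unadjusted p under 0.05, against 10.6% of all genes, and with the T cell mean 4 of 10 (Axl, Twist1, Egfr and Vim), and 0 passed the adjustment for either. Those 5 were Axl and the 4 members that had such a p with Dcn. They include Ngfr, which passed the filter on low values only through the Ly86 group, so that its values only describe it. Snai2 had an r of 0.77 with the macrophage mean (exact p = 0.0133, adjusted 0.213, rho 0.89, exact p = 0.0123, n = 7) and Ngfr an r of 0.70 (exact p = 0.0288, adjusted 0.267, rho 0.93, exact p = 0.00675, n = 7). Twist1 and Egfr had r of 0.84 (exact p = 0.0268, adjusted 0.2615, rho 0.61, exact p = 0.167, n = 7) and 0.85 (exact p = 0.0224, adjusted 0.247, rho 0.71, exact p = 0.0881, n = 7). Centred on group means, r with the macrophage mean was 0.81 for Axl, 0.73 for Egfr, 0.66 for Twist1, 0.50 for Snai2 and 0.25 for Ngfr. The exact permutation p values, in the same order, were then 0.132, 0.278, 0.576, 0.0833 and 0.396. Without vector tumors 1 and 3, r with the T cell mean was -0.39 for Twist1, 0.20 for Egfr and -0.073 for Vim. Dcn and both immune list means were lowest in vector tumor 1, and the part of each cell type in the members' levels was not tested.

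Partners of the receptors showed a mixed picture. Of 22 ligands, co-receptors and relatives of Ngfr, Axl and Egfr, 13 were expressed at a mean of at least 1 TPM, 6 higher and 7 lower in the Ly86 tumors, with a median difference of -0.021 and 0 passing. The 5 with the smallest p were 4 genes of the Axl system and Ntrk2, a neurotrophin receptor. Gas6, the ligand of Axl, averaged 4.88 ± 0.37 log2(TPM + 1) in Ly86 tumors (SD, n = 4) and 3.82 ± 0.64 in vector tumors (SD, n = 3), a difference of 1.06 (SE 0.31, limma adjusted p = 0.437), without overlap. This value depended on how unlike pieces were joined. Gas6 had 29.09 and 38.11, 20.45, 25.99 and 36.9 TPM in Ly86 tumors 1 to 4, and 4.04 and 13.58, 108.9 and 1.6, and 18.56 TPM in vector tumors 1 to 3. With TPM averaged over pieces before the log, the difference was 0.42 (SE 0.53, limma adjusted p = 0.831), and the group means were 29.2 TPM in Ly86 and 27.5 TPM in vector tumors. Tyro3, a relative of Axl, was lower without overlap, at -0.63 (SE 0.20, limma adjusted p = 0.437). Pros1, a second ligand of the family, differed by 0.37 (SE 0.22, adjusted p = 0.563), the relative Mertk by 0.43 (SE 0.28, adjusted p = 0.611) and Ntrk2 by 0.53 (SE 0.32, adjusted p = 0.573).

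Of 30 further genes of epithelial-mesenchymal transition and invasion, 27 were tested, 16 higher and 11 lower, with a median difference of 0.34 and 0 passing in limma. Those with the smallest p were Twist2, the close relative of Twist1, at 1.02 (SE 0.32), the collagen cross-linking enzyme gene Lox at 1.68 (SE 0.55), the calcium-binding protein gene S100a4 at 1.04 (SE 0.35), the mesenchymal factor Prrx1 at 0.91 (SE 0.34) and the co-receptor gene Gfra2 at 0.63 (SE 0.25). Their limma adjusted p ranged from 0.437 to 0.453. Snai1, the relative of Snai2, differed by 0.70 (SE 0.31, limma adjusted p = 0.464). Cdh1, which encodes E-cadherin and which Zeb and Snail factors repress, differed by -0.019 (SE 0.66, adjusted p = 0.995). On the pigment cell side, Mitf differed by -0.036 (SE 0.29, limma adjusted p = 0.979) and Sox10 by -0.31 (SE 0.18, adjusted p = 0.563), and the median over 18 pigment cell genes was -0.011, with 9 higher and 9 lower. Several cell type lists had larger median differences than the 0.54 of the members. The median over 15 fibroblast genes was 1.34, over 11 macrophage genes 1.25 and over 8 T cell genes 1.18, and every gene of these 3 lists was higher in the Ly86 tumors, though 0 passed. It was -0.32 over 8 pericyte and smooth muscle genes, -0.043 over 10 endothelial genes and 0.045 over 8 Schwann cell and nerve genes. With these 8 Schwann cell and nerve genes, Ngfr had a median r of 0.056 over the 7 tumors, and 5 of them had an r above 0. On the log2 scale the 9 keratinocyte genes and the 7 skeletal muscle genes were all lower, with medians of -0.54 and -1.06, and again 0 passed. These genes varied widely between Ly86 tumors. The keratinocyte mean was 2.00 ± 2.51 log2(TPM + 1) in Ly86 tumors (SD, n = 4) and 2.59 ± 0.81 in vector tumors (SD, n = 3). The skeletal muscle mean was 2.80 ± 2.36 in Ly86 and 3.71 ± 0.50 in vector tumors. In mean TPM, all of these genes but Krt15, Des and Mylpf were higher in the Ly86 tumors. The part of these cell types in the members' levels was not tested.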

How the data were processed

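RNA was sequenced from polyadenylated RNA of B16F10 tumors on an Illumina NovaSeq, per the labels. The submitters' processing notes name STAR 2.7.10b, RSEM 1.3.3 and the build mm39. Values in the authors' deposited table are log2(TPM + 1), by gene symbol. That scale was read from the values: 99.88% gave multiples of 0.01 TPM to within 0.001 hundredths, and libraries summed to 994679 to 996446 TPM. Depth was unknown, so no counting interval is given. Near-identical genes can share reads.

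The log2 values of the pieces of a tumor were averaged to compare 4 Ly86 tumors with 3 vector tumors. The labels do not say that tumors came from different mice, so p-values measure the spread between tumors, part of which may be technical. Genes with a mean of at least 1 TPM were tested with limma 3.58.1 in R 4.3.3 (lmFit, eBayes with trend) and Benjamini-Hochberg adjustment over 14556 genes. Correlations used exact permutation in Python with numpy, adjusted over 14555 genes. Both were tested on simulated data. The design had assumed TPM, and log2(TPM + 1) needed no other test.

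The members, lists and tests were chosen with earlier results of these data known. Beyond the members, Ly86, Dcn and Pmel, the text names the 5 genes with the smallest unadjusted p in the list of receptor partners and in that of transition and invasion genes, the genes Cdh1, Snai1, Gas6, Mitf and Sox10, and the 2 genes most correlated with each member. Sequences come from RefSeq (GRCm38.p6), not from the files' build.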

Additional observations from a re-analysis of the deposited data

Results flagged for a closer look

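Vim in Ly86 tumor 4 stood at 11.15 log2(TPM + 1), apart from the other 3 Ly86 tumors, which lay between 11.02 and 11.03. Of 13 genes looked at in the group of 4 Ly86 tumors (the 10 members, Ly86, Dcn and Pmel), it was the 1 with a sample far from the rest by Dixon's test at the 95% level. Chance gives about 1 such group in 20. The vector group, with 3 tumors, is too small for this test.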

How the results depend on the processing

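With pseudocounts of 0.1 and 0.5, median-of-ratios scaling, quantile normalization, no filter, eBayes without trend or robust, a random tumor effect over the 10 libraries, and without mitochondrial and hemoglobin genes, each member kept its direction and none passed, though sizes moved (Twist1 1.20, Egfr 1.29 and Ngfr 2.18 with a pseudocount of 0.1). With limma's array weights 2 members passed, Ngfr at 1.08 (adjusted p = 0.0250) and Twist1 at 0.68 (adjusted p = 0.0361), among 1832 genes, where the weight of vector tumor 3 was 22.8 and those of the other tumors were 0.361 to 0.946. Ngfr had passed the filter on low values only through the Ly86 group, so that its value is a description and no support. Over the settings, the adjusted p of Ngfr ranged from 0.0250 to 1 and that of Twist1 from 0.0361 to 1. Genes passing over the whole table numbered 1 with the first pieces only, 37 with the second pieces only, 3 when vector tumor 2 was represented by its second piece, and 0 to 2 when a tumor was left out. The median over members was 0.041 at a minimum of 5 TPM, where 4 members were tested, and -0.18 with Dcn as a covariate, where Axl (-0.20), Twist1 (-0.23), Zeb1 (-0.61), Snai2 (-0.056), Egfr (-0.64) and Vim (-0.16) changed sign. It was 0.34 to 0.59 when a tumor was left out. Zeb2, at 0.0016, changed sign with TPM averaged over pieces (-0.0057), the second pieces (-0.011), array weights (-0.070), Pmel as a covariate (-0.0027) and when a tumor was left out (-0.073 to 0.15), and Vim with the first pieces (-0.068). The cause was not tested.

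Tumors with the same number in both groups did not deviate together, with correlations of -0.17, -0.11 and -0.31, and 0 of 6 tumors correlated best with their own number. With the tumor number as a replicate block 0 genes passed, and Zeb2 was -0.023.

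With Dcn, 1 member passed with the second pieces only (Egfr, r = 0.95), and 5 in place of 8 members had r above 0 without the 2 tumors farthest from the median, where Axl (-0.0086), Zeb1 (-0.19) and Vim (-0.15) turned. Leaving out a tumor gave -0.060 to 0.77 for Axl and -0.31 to 0.69 for Zeb2. Zeb2 also turned with the first pieces (0.37), the second pieces (0.12), 10 libraries (0.41), the macrophage mean (0.29) and the T cell mean (0.48), Sox9 (-0.30) and Cdh2 (0.090) on centring. With Pmel, 1 in place of 3 members had r above 0 without the 2 farthest tumors, where Axl (-0.86), Zeb2 (-0.50), Sox9 (-0.45) and Cdh2 (0.55) turned. Leaving out a tumor gave -0.55 to 0.84 for Axl, -0.046 to 0.81 for Sox9 and -0.54 to 0.52 for Cdh2. Axl turned with the first pieces (-0.0023) and 10 libraries (-0.083), and Cdh2 with the first pieces (0.15), 10 libraries (0.23) and the melanocyte mean (0.065). The macrophage and T cell means and the settings for Gas6 were added after seeing the data.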

Other observations

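The genes most like each member over the 7 tumors were taken by Pearson r, as a description with no test. They came from 10460 genes with a mean of at least 5 TPM, with names of Gm and a number or ending in Rik left out. Among so many genes and so few tumors, a high r is easily reached. The nearest to Twist1 were Nnmt, which encodes a methyltransferase of nicotinamide, at 0.9955 and Arg1, which encodes arginase of macrophages and liver, at 0.99. Nearest to Egfr were the interleukin 13 receptor gene Il13ra1 at 0.99 and Bmp1, a procollagen protease gene, at 0.99. Ngfr was nearest to Fbxo33 at 0.97 and to Lum, which encodes the fibroblast proteoglycan lumican, at 0.97. Snai2 was nearest to Filip1l at 0.97 and Csgalnact2 at 0.96.

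Axl was nearest to H2-M3, a nonclassical class I histocompatibility gene, and to Nudt8, both at 0.99. Cdh2 was nearest to Armt1 at 0.9971 and to U2surp, a splicing gene, at 0.99. Zeb1 was nearest to Cep170 at 0.99 and Vps54 at 0.98, Zeb2 to Etnk1 and the sulfate transporter gene Slc26a2, both at 0.98, Sox9 to Ikbke at 0.97 and Zfp688 at 0.96, and Vim to Slc43a3 at 0.98 and the stress factor gene Atf3 at 0.97.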
